A study of Homo sapiens with 6 samples.

Results

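The AP-1 subunit genes are the 3 genes of the JUN family (JUN, JUNB, JUND), the 4 genes of the FOS family (FOS, FOSB, FOSL1, FOSL2) and JDP2, the gene of a JUN dimerization protein. These 8 genes of the 58302 in the deposited data were chosen by name with earlier results of the same contrast known, so that their values are a description and carry no test. All 8 had enough counts to be among the 15075 genes tested. RNA was sequenced from 3 biological repeats of a cell line labelled MDA-MB231 (a breast cancer line) expressing a control shRNA and from 3 repeats expressing Smyca shRNA #1, with 1 hairpin per group and no other treatment in the labels. Smyca is a long noncoding RNA, listed as MIR23AHG. Whether the cells were pools or clones, and whether the repeats were grown separately, is not given in the sources used here.

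AP-1 is a dimeric transcription factor. The JUN proteins pair with each other or with a FOS protein through a leucine zipper, while FOS proteins need a partner, and the dimer binds the TPA response element (TRE) or, with ATF and CREB partners, the cyclic AMP response element (CRE). FOS, FOSB, JUN and JUNB are immediate-early genes, whose transcripts rise within minutes of serum, growth factor or stress signals and decay quickly. JUND is more constantly transcribed, FOSL1 and FOSL2 follow later, and JDP2 mostly acts as a repressor on AP-1 sites.

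Total counts lay between 14999307 and 16501085 per library, with a median of 15560192 in the control and 15788258 under Smyca shRNA. The share of counts on mitochondrial genes was 4.99% in control replicate 3 and 1.78% to 2.72% in the other 5 libraries. In control replicate 2 the deposited FPKM column did not follow the count column, and the reads behind it correlated more with the counts of control replicate 3 (r = 0.987) than with those of its own count column (r = 0.969, log2(count + 1) across 21083 genes, which are not independent replicates). Smyca, read as the gene MIR23AHG, was at 25.0, 19.5 and 22.0 normalized CPM in the control. Normalized CPM are counts relative to the library total after TMM scaling. In the knockdown MIR23AHG was at 10.5, 6.97 and 5.61, and the groups did not overlap. Its control/knockdown log2 fold change was 1.53 ± 0.26 (standard error), and edgeR's test did not call it by the criteria given below. The count does not separate Smyca from the microRNA precursor that the study describes on the same primary transcript. The line's markers were mixed. Of the 5 genes this line is known to express, KRT18, VIM, CD44, AXL and CAV1, all were detected and 4 had a higher mean in the control, with a summed level of 1470 to 1611 normalized CPM in the control and 1270 to 1518 in the knockdown. ESR1 and PGR had at most 3 counts and GATA3 at most 61, but ERBB2 was at 46.7 to 72.2 normalized CPM. Of the markers of other cells, PTPRC had 0 counts, ALB at most 4 and PECAM1 at most 65. IL6, which MDA-MB-231 cells are known to secrete, had 0 counts in each library. Of genes chosen after their values were seen, CDH1 (E-cadherin), which this line is known to silence, was at 71.5 to 300.1 normalized CPM, and EPCAM, HNF4A and VIL1 had at least 1021 counts in each library. These levels go against the label, and the cells are therefore called by their label only. VIM, at 148 to 305 normalized CPM in the control and 71.2 to 130 in the knockdown, did not overlap between the groups. Neither did VIL1, which went the other way, at 220.5 to 343 in the control and 422 to 501 in the knockdown. The part of both in the results below was not tested.

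The genes differ in structure in ways that the choice did not use. In GENCODE release 44 (GRCh38), JUN lies on the minus strand at chr1:58776845-58784048, JUNB on the plus strand at chr19:12791486-12793315 and JUND on the minus strand at chr19:18279694-18281622. The canonical transcript of each of these has 1 exon, as in 5.64% of 20046 protein-coding genes, and each of the other 5 has 4 exons. FOS (chr14:75278826-75282230, plus strand) and JDP2 (chr14:75427716-75474111, plus strand) are neighbours, 145485 bases apart. FOSB lies at chr19:45467995-45475179 on the plus strand, FOSL1 at chr11:65892049-65900573 on the minus strand and FOSL2 at chr2:28392448-28417317 on the plus strand. The pentamer ATTTA, the core of AU-rich elements that mark short-lived mRNAs, occurred 9 times in the 3′ UTR of FOSL2 and 5 times in that of FOS. The median over 19538 genes was 2, and 14.8% and 28.9% of them had at least as many as FOSL2 and FOS. These 3′ UTRs have 4869 and 806 bases, and the counts were not scaled to length. The pentamer occurred 3 times in JUN, FOSB and JDP2, 2 times in JUNB and 1 time each in JUND and FOSL1.

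Promoter sequence is shown for the full elements found in JUN, JUND, FOS and FOSB, and for the shorter CRE core of FOS, to place them beside the expression values. Windows of 400 bases before each RefSeq start site (GRCh38) were searched on both strands, 9 windows for 7 of the genes. FOSL1 was not in the table. A CArG box, the site of serum response factor, was found in FOS and FOSB and in 1.90% of all 35116 windows. The full CRE, TGACGTCA, was found in FOSB and JUND and in 1.89% of all windows. JUN held the TRE-like sites TGACATCA (2.93% of all windows) and TTACCTCA (0.988%), which ATF2 and JUN dimers are known to bind. In the lines below, capitals mark the element, each sequence runs along the strand of the gene, and the bases around it come from the reference.

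FOS CArG box, 314 bases before the start, chr14:75278494-75278543, plus strand: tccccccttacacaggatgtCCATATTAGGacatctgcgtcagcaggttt
FOSB CArG box, 274 bases before the start, chr19:45467702-45467751, plus strand: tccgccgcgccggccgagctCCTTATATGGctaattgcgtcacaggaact
FOS CRE core, 64 bases before the start, chr14:75278744-75278789, plus strand: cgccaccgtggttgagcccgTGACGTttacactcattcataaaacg
FOSB CRE, 325 bases before the start, chr19:45467651-45467698, plus strand: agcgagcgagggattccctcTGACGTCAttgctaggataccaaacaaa
JUND CRE, 200 bases before the start, chr19:18281795-18281842, minus strand: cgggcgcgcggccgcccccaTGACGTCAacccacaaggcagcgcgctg
JUN proximal TRE-like site, 67 bases before the start, chr1:58784087-58784134, minus strand: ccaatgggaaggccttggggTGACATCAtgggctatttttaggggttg
JUN distal TRE-like site, 186 bases before the start, chr1:58784206-58784253, minus strand: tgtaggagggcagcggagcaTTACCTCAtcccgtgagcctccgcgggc

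The short CRE core TGACGT, which is part of the full CRE, occurred in 6 of the 7 genes (not JUNB) and in 9.16% of all windows. The TRE itself, TGACTCA or TGAGTCA, occurred in 0 of the 7 genes and in 6.10% of all windows. The Myc E-box CACGTG and the Smad palindrome GTCTAGAC, motifs of 2 factor families that the study examined, also occurred in 0 of the 7 genes, against 8.76% and 0.251% of all windows. Such matches are letters in a window and do not show binding. With only 9 windows, 0 matches of a motif with such shares does not show that it is lacking. Other Smad and Myc sites were not searched.

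The immediate-early members come first, beginning with JUN, a partner of the FOS proteins. JUN was at 697, 561 and 930 normalized CPM in the control, against 197, 196 and 190 in the Smyca knockdown. All 3 control libraries lay above all 3 knockdown libraries, and the knockdown libraries were within a factor of 1.04 of each other against 1.66 in the control. The group means of 729 ± 187 and 194 ± 3.93 (SD, n = 3 each) corresponded to a control/Smyca knockdown log2 fold change of 1.91 ± 0.20 (standard error, SE). In bulk RNA, fewer cells with a transcript and less of it per cell cannot be told apart. JUN was the only one of the 8 genes to meet the criteria for a DEG (a control/knockdown ratio reaching 1.5, or down to 0.66 or less, with an adjusted p under 0.05 in edgeR's quasi-likelihood test), 1 of 8 where 0.0265% of all genes tested met them. That call was lost when control replicate 1 or any 1 of the 3 knockdown libraries was left out, while the log2 fold change of JUN stayed between 1.69 and 2.06.

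FOS, the founding partner of JUN, was at 49.5, 47.1 and 123 normalized CPM in the control and at 8.32, 5.64 and 8.25 in the knockdown. The groups did not overlap, and control replicate 3 stood well above the other 2 controls. The means were 73.0 ± 42.9 and 7.40 ± 1.53 (SD, n = 3 each). Its log2 fold change of 3.30 ± 0.40 SE, a ratio of 9.86, was the largest of the 8, and it was 2.70 without control replicate 3, still the largest. FOSB, its close relative, was at 20.2, 13.9 and 71.9 normalized CPM in the control against 8.64, 4.69 and 8.85 in the knockdown. Here too control replicate 3 was apart from the others, although each control library was above each knockdown library. The means of 35.4 ± 31.8 and 7.39 ± 2.34 (SD, n = 3 each) gave a log2 fold change of 2.26 ± 0.59 SE, which was 1.20 without control replicate 3.

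JUNB, which pairs with the same FOS proteins and can restrain JUN, was at 154, 125 and 219 normalized CPM in the control and at 84.3, 61.3 and 64.6 in the knockdown. The groups were apart, with control replicate 3 again the highest. The log2 fold change was 1.24 ± 0.23 SE. FOSL1, which encodes FRA1 and is known for its high level in mesenchymal breast cancer cells, was at 255, 153 and 156 in the control and at 94.4, 108 and 81.5 in the knockdown. The highest FOSL1 value was that of control replicate 1, not 3, and the groups did not overlap. Its log2 fold change was 0.99 ± 0.23 SE and lay between 0.71 and 1.12 when any 1 library was left out.

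FOSL2, which encodes FRA2, had the widest control group. It was at 301, 143 and 54.9 normalized CPM in the control and at 85.1, 71.5 and 60.6 in the knockdown. Control replicate 3 lay below all 3 knockdown libraries, so the groups overlapped, and the highest control value was 5.48 times the lowest. The log2 fold change of 1.20 ± 0.50 SE was 0.45 without control replicate 1 and 1.60 without control replicate 3, and only in the last case were the groups apart. Of the 5 markers of the line, VIM, AXL and CAV1 had the same order of control libraries, CAV1 at 101, 73.2 and 27.9 normalized CPM, while KRT18 had the opposite order and CD44 neither. CDH1, at 300.1, 192 and 71.5, had the order of FOSL2 as well. The part of these genes in the FOSL2 values was not tested.

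JUND and JDP2 were close between the groups. JUND was at 255, 287 and 243 normalized CPM in the control and at 220, 215 and 289 in the knockdown, with overlap and a log2 fold change of 0.12 ± 0.16 SE. With 1 library left out it was between 0.039 and 0.26, and the groups were apart only without knockdown replicate 3. JDP2 was at 18.5, 21.6 and 26.3 in the control and at 40.4, 14.2 and 22.4 in the knockdown. Its highest and lowest values were both knockdown libraries. The log2 fold change of JDP2 was -0.21 ± 0.35 SE and changed sign to 0.27 without knockdown replicate 1.

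In all, 7 of the 8 genes had a higher mean in the control, with a median log2 fold change of 1.22 against 0.036 over all genes tested. The groups did not overlap in 5 of 8, all with the control above, where 12.4% of all genes tested had the control above and 12.5% had it below. With DESeq2's Wald test and the same criteria, JUN, JUNB, FOS, FOSB and FOSL1 were DEGs, 5 of 8 higher in the control where 3.38% of all genes were, and 0 of 8 lower where 2.26% were. Without control replicate 3, 6 of the 8 met the criteria in edgeR's test, and so did 1628 genes over the whole table against 4 with all libraries. These shares are given for scale only, since the genes were picked with this contrast known.

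The control libraries did not rank alike across the family. Control replicate 3 was the highest control for JUN, JUNB, FOS, FOSB and JDP2, control replicate 1 for FOSL1 and FOSL2, and control replicate 2 for JUND. Over all genes tested, control replicate 3 was the highest control in 42.5%, replicate 1 in 34.6% and replicate 2 in 23.0%. Control replicate 3, the highest library for FOS and FOSB, also had the highest mitochondrial share, while the other 2 control libraries had a lower share than each knockdown library. Its part in the values of control replicate 3 was not tested. The 2 deposited columns of control replicate 2 also differed for the members. By its counts, that library was at 47.1 normalized CPM for FOS, 13.9 for FOSB and 143 for FOSL2. By the reads behind its FPKM column it was at 122, 71.9 and 51.6, near the 123, 71.9 and 54.9 of control replicate 3. For JUN the 2 columns gave 561 and 1041. With the FPKM-column reads, the log2 fold change was 2.18 for JUN, 3.72 for FOS, 2.88 for FOSB, 1.56 for JUNB and 0.89 for FOSL2.

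Levels were compared between genes only per length, as FPKM on the TMM scale with the gene lengths behind the deposited FPKM. In the control, JUND was the most abundant at 222 ± 19.4, followed by JUN at 206 ± 52.7, FOSL1 at 156 ± 48.1, JUNB at 91.2 ± 26.5, FOS at 72.9 ± 42.8, FOSL2 at 48.1 ± 36.1, FOSB at 13.9 ± 12.5 and JDP2 at 11.5 ± 2.04 (mean FPKM ± SD, n = 3). Of the neighbours in this order, FOSL1 and JUNB were the only pair whose libraries did not overlap. In the knockdown, the order was JUND at 204 ± 34.8, FOSL1 at 78.6 ± 10.9, JUN at 54.9 ± 1.11, JUNB at 38.5 ± 6.83, FOSL2 at 21.0 ± 3.56, JDP2 at 13.3 ± 6.97, FOS at 7.40 ± 1.53 and FOSB at 2.91 ± 0.921. There the neighbours overlapped for FOSL2 and JDP2 and for JDP2 and FOS, and the other 5 pairs were apart. JUN thus stood at rank 2 in the control and rank 3 in the knockdown, and FOS at ranks 5 and 7, with these lengths.

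The summed level of the 8 genes was 863, 702 and 899 FPKM in the control libraries and 424, 396 and 442 in the knockdown libraries. JUND made up 25.0%, 34.6% and 22.9% of this sum in the control and 43.9%, 45.9% and 55.2% in the knockdown, without overlap. The share of JUN was 22.8%, 22.5% and 29.2% against 13.1%, 14.0% and 12.1%, and that of FOS was 5.73%, 6.69% and 13.6% against 1.96%, 1.42% and 1.87%. So the knockdown libraries held a smaller pool in which JUND was the largest part. The FOS family as a whole took 41.3%, 31.5% and 33.0% in the control and 27.1%, 29.7% and 22.0% in the knockdown. FOSL1, at 14.5% to 24.6% in the control and 15.3% to 22.6% in the knockdown, was the largest part of the FOS family in each library. The shares depend on the lengths. With the lengths of the canonical transcripts, an alternative added after seeing the data, JUN averaged 35.0% and JUND 22.0% in the control, which puts JUN first. In the knockdown JUND averaged 41.6%, JUN 19.9% and FOSL1 18.6%, which puts JUN at rank 2 there. The FOS family then took 34.0%, 25.9% and 24.9% in the control and 24.6%, 27.2% and 20.3% in the knockdown, with overlap, and the difference of the group means (knockdown minus control) went from -8.99 to -4.18 percentage points. For FOS alone that difference went from -6.93 to -4.15 percentage points.

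**Figure D1:**
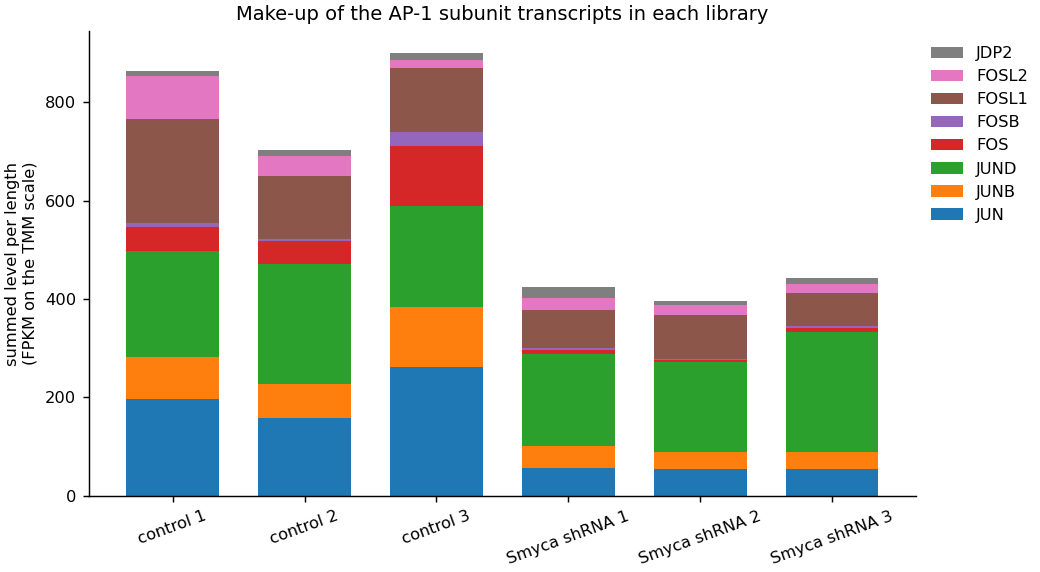
Stacked bars of the level per length (FPKM on the TMM scale) of the 8 AP-1 subunit genes in each of the 6 libraries, from JUN at the bottom to JDP2 at the top. The bars reach 702 to 899 in the control and 396 to 442 under Smyca shRNA, with a JUND segment (green) of similar height in both and smaller JUN (blue) and FOS (red) segments in the knockdown.

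Some members share their place with genes on the other strand, and the strand setting of the counting is not given in the sources used here. The annotated span of HOOK2 covers all of JUNB, and that of ERCC1, a DNA repair gene, covers all of FOSB. HOOK2 had a log2 fold change of 0.17 ± 0.19 SE and ERCC1 of 0.37 ± 0.20 SE. If strand was not used, reads on bases where exons of such a pair overlap cannot be told apart. Overlap of exons was not checked. FOSL2-AS1 had at most 10 counts and JDP2-AS1 at most 19 in any library.

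The genes next to the members were looked at as neighbours on the chromosome. The nearest tested protein-coding gene on each side gave 14 genes other than members, of which 6 had a higher mean in the control and 8 a lower one, with a median log2 fold change of -0.075. With edgeR 0 of 14 were DEGs, 3 were higher and 3 lower at an unadjusted p under 0.05 (over all genes 10.4% were higher and 8.74% lower), and with DESeq2 0 were DEGs. The smallest p was that of MYSM1, a histone H2A deubiquitinase gene 76754 bases from JUN, with a log2 fold change of 0.48 ± 0.15 SE (adjusted p = 0.150). GET3, an ATPase gene for the insertion of membrane proteins 43162 bases from JUNB, was at -0.59 ± 0.18 SE (adjusted p = 0.154), and LSM4, an RNA-binding LSm subunit gene 24613 bases from JUND, at -0.47 ± 0.16 SE (adjusted p = 0.168). JUNB lies 1030564 bases from the Smyca gene itself on chromosome 19, the nearest of the members.

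The 6 lists of genes around AP-1 were read from the same fit, which tested 74 of their 85 genes. The lists were written with earlier results of these data known. With edgeR's test 0 of the 74 were DEGs, while 16 were higher and 6 lower in the control at an unadjusted p under 0.05 (10.4% and 8.74% of all genes tested), and DESeq2 called 10 higher and 1 lower (3.38% and 2.26% of all genes tested).

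Dimer partners from the ATF, BATF and MAF families were split. Of 12 tested, 8 were higher and 4 lower in the control, with a median log2 fold change of 0.26, and 4 reached an unadjusted p under 0.05, all higher. MAFF, a small MAF protein, was at 106, 63.4 and 65.1 normalized CPM in the control and at 35.7, 26.5 and 42.9 in the knockdown, a log2 fold change of 1.16 ± 0.25 SE (adjusted p = 0.111). BATF2 was at 9.44, 7.81 and 2.95 against 2.10, 2.41 and 2.31, a log2 fold change of 1.57 ± 0.43 SE (adjusted p = 0.130). ATF3, a stress-induced partner of JUN, was at 27.0, 18.6 and 39.1 against 12.1, 4.24 and 13.9, a log2 fold change of 1.49 ± 0.43 SE (adjusted p = 0.140). The groups of these 3 genes did not overlap, and none was a DEG in edgeR's test, while DESeq2 called all 3 and CREB5. MAF and MAFA were among the partners with too few counts to be tested.

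The kinase cascades that feed AP-1 were centred near 0. Of 13 tested genes of the JNK cascade, which phosphorylates JUN, 6 were higher and 7 lower in the control, with a median log2 fold change of -0.0081, and 1 in each direction had an unadjusted p under 0.05. MAPK8IP3, a JNK scaffold, was at 0.65 ± 0.20 SE (adjusted p = 0.152), and the upstream kinase genes MAP3K11 at -0.36 ± 0.15 SE (adjusted p = 0.253) and MAP3K1 at -0.50 ± 0.23 SE (adjusted p = 0.276). Of 12 ERK and p38 kinases, 7 were higher and 5 lower, with a median of 0.042, and only MAP2K6, a kinase of p38, had an unadjusted p under 0.05, at 0.78 ± 0.32 SE (adjusted p = 0.230). MAPK7 (ERK5) was at 0.24 ± 0.20 SE (adjusted p = 0.538). DESeq2 called 0 genes of both lists. These are mRNA levels, and kinase activity was not measured.

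The factors known to act on the FOS and JUN promoters were also near 0. Of 13 tested, 7 were higher and 6 lower in the control, with a median of 0.0099. Of these, 0 were higher and 2 lower at an unadjusted p under 0.05. SRF, the protein known to bind CArG boxes, was at -0.48 ± 0.18 SE (adjusted p = 0.206). Its mean normalized CPM ± SD (n = 3) was 83.7 ± 12.8 under control shRNA and 117 ± 20.2 under Smyca shRNA. Its coactivator MRTFA was at -0.31 ± 0.13 SE (adjusted p = 0.259) and ATF1, a CRE-binding factor, at -0.25 ± 0.13 SE (adjusted p = 0.330). DESeq2 called 0 of the list.

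Of 10 genes for turnover and coregulators of AP-1 proteins, 6 were higher and 4 lower in the control, with a median of 0.095. CREBBP, the acetyltransferase CBP, averaged 107 ± 13.6 normalized CPM under control shRNA and 180 ± 13.2 under Smyca shRNA (SD, n = 3 each), with a log2 fold change of -0.75 ± 0.15 SE (adjusted p = 0.111). It was the only gene of the 6 lists that DESeq2 called lower in the control. Its relative EP300 was at -0.41 ± 0.13 SE (adjusted p = 0.154) and TRIB1, an adaptor of the COP1 ubiquitin ligase, at 0.58 ± 0.20 SE (adjusted p = 0.176).

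The AP-1 target genes had the highest median of the 6 lists, 1.05, with 12 of 14 tested genes higher in the control. At an unadjusted p under 0.05, 8 were higher and 1 lower, where 10.4% and 8.74% of all genes tested were. The lower gene was CCND1, the cyclin D1 gene, with a log2 fold change of -0.61 ± 0.24 SE (adjusted p = 0.221). PLAU, the urokinase gene, was at 47.9, 32.5 and 23.1 normalized CPM in the control libraries, against 12.6, 11.0 and 8.85 in the knockdown, a log2 fold change of 1.67 ± 0.28 SE (adjusted p = 0.111). PLAUR, the urokinase receptor gene, was at 80.0, 54.0 and 30.5 against 18.3, 17.0 and 18.4, a log2 fold change of 1.61 ± 0.31 SE (adjusted p = 0.111). In both genes the groups did not overlap, and control replicate 1 was the highest control library and replicate 3 the lowest, as in FOSL2. Other targets of the list, CXCL8, MT2A and CCND1, had control replicate 3 as the highest control library, as in FOS. What sets these orders was not tested. DESeq2 called 6 of the 14 higher and 0 lower, where it called 3.38% and 2.26% of all genes, and edgeR called 0. The collagenase and stromelysin genes MMP1, MMP3, MMP9 and MMP10 had at most 1 count and MMP13 at most 3 in any library, so classical AP-1 targets of the matrix metalloproteinase family could not be compared.

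The genes whose pattern over the 6 libraries was most like that of JUN or FOS were ranked by Pearson's r of log2 CPM, as a description of 6 points that share their libraries and fall into 2 groups. For JUN they were PTPRZ1 (r = 0.997), a receptor tyrosine phosphatase gene, EFCAB7 (0.995), C20orf96 (0.995), GADD45A (0.991) and ENSG00000253667 (0.991). For FOS they were ENSG00000239486 (0.995), GADD45A (0.993), RABGEF1 (0.992), ZIC5 (0.991) and C20orf96 (0.991). GADD45A, a growth arrest and DNA damage gene named by both, was at 236, 201 and 292 normalized CPM in the control and at 109, 100.03 and 118 in the knockdown, with control replicate 3 the highest library as for JUN. Its log2 fold change was 1.16 ± 0.17 SE. The 2 genes named by identifier were each below 1.5 normalized CPM in every library.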

How the data were processed

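The authors removed rRNA, made strand-specific libraries, sequenced paired ends on a HiSeq4000, aligned with TopHat v2.0.12 (GRCh38) and counted with HTSeq. The annotation release is not given in the sources used here. For each library the authors deposited a read count per gene and an FPKM value, which is that count scaled by gene length and library total, except in control replicate 2. GENCODE release 44 gave symbols to 57532 of 58302 identifiers. Counts were fitted in R 4.3.3 with edgeR 4.0.16 (TMM, filterByExpr, quasi-likelihood test, Benjamini-Hochberg over 15075 genes) in place of the authors' DESeq, and with DESeq2 1.42.0 as an alternative. Fold changes are control over Smyca knockdown. The biological coefficient of variation was 25.2%. Each test used 3 against 3 libraries, except where 1 library was left out. The code was tested on simulated counts.

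The members and lists were chosen with earlier results of these data known. Besides the members, the 3 genes of smallest p in each list and among the neighbours, and the 5 genes most like JUN and FOS, were named, except that some are not reported here. CAV1, VIM, AXL, KRT18 and CD44 are from the marker list. The genes with opposing identity markers, DESeq2's further calls, CXCL8, MT2A and CCND1 were named after their values were seen. Alternatives were RLE factors, total counts, other filters and thresholds, DESeq2, a replicate block, each library left out, reads recovered from control replicate 2's FPKM values, and other gene lengths.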

Additional observations from a re-analysis of the deposited data

How the results depend on the processing

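With all 6 libraries 4 genes, 1 member and 0 genes of the lists and neighbours were DEGs. The number of DEGs was 916 without a filter beyond 1 count, 850 with DESeq2, 8 with total counts, 8 at an adjusted p under 0.10 and 10 with reads recovered from control replicate 2's FPKM values. For the members, the corresponding numbers were 6, 5, 2, 2 and 2. In the lists, 11 genes were DEGs without the filter, 11 with DESeq2 and 0 in the other 3. Leaving out 1 library gave 0 to 1628 DEGs, 0 to 6 members and 0 to 14 list genes, with the highest in each case without control replicate 3. The 0 DEGs arose without control replicate 1, knockdown replicate 1 or knockdown replicate 2, where 1730, 2479 and 1687 genes had an unadjusted p under 0.05 in edgeR. Single members whose log2 fold change moved by more than 1 SD among their libraries, or changed sign, were JUN at 2.18 with the FPKM-column reads, FOS at 2.70 and FOSB at 1.20 without control replicate 3, and JDP2, which ranged from -0.51 to 0.27 when 1 library was left out and changed sign only without knockdown replicate 1. FOSL2 ranged from 0.45 without control replicate 1 to 1.60 without control replicate 3, within 1 SD of its widely spread libraries. The cause was not tested. The share of JUN among the 8 genes, knockdown minus control, was -11.8 percentage points with the deposited lengths and -15.1 with canonical lengths. The count of members whose groups did not overlap was 5 to 6 over the alternatives run, where the share over all genes was not taken. The added gene was FOSL2 without control replicate 3 and JUND without knockdown replicate 3. With a library left out, the smaller group separates more easily. With total counts the median log2 fold change of all genes moved from 0.036 to 0.106. At this depth the lowest count of a member was 74.

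With the replicate number as a block, 0 genes and 0 members were DEGs, and 2568 genes had an unadjusted p under 0.05. Deviations of same-numbered libraries from their group means correlated at 0.0536, 0.0938 and 0.0207, none above 0.1, and not every library correlated best with its own number, so the samples are taken to share only a number.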
